A study of Mus musculus with 2 samples.

Results

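The cytosolic ribosomal protein genes were taken as the GENCODE protein-coding genes of the mouse assembly mm10 whose names are Rpl or Rps followed by a digit, together with Rplp0, Rplp1, Rplp2 and Rpsa, and without the kinase genes named Rps6k. This name rule used no measured value and found 92 of the 21670 protein-coding genes on the autosomes and the X chromosome. By name, 77 of the 92 were standard ribosomal protein genes, 46 of the large subunit and 31 of the small subunit. A further 7 were paralogues named with a final l or with l and a digit, 7 had the names of retrocopies (6 with -ps, and Rps27rt), and 1, Rps19bp1, encodes a protein that binds a ribosomal protein. The ribosomal protein gene Fau falls outside the name rule and is given with the other genes of the pathway.

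The data were 2 DNase-seq libraries from the cerebellum of male B6CASTF1/J mice, an F1 hybrid of a laboratory strain and CAST, aged 4 days. DNase-seq cuts accessible chromatin with DNase I and sequences the ends, so a peak marks open DNA, and a footprint is a short stretch within open DNA that is cut less than its surroundings. Both libraries form 1 group with no treatment and no allele other than the strain, each label names 3 males per library, and both libraries carry the same donor label. They are numbered as biological replicates, and the labels do not say more about how they were separated, so the spread between them may be technical. There was therefore no comparison between conditions, and every statement below is a description of 2 libraries that differ in how much was called in them. The peak list of replicate 1 held 61896 peaks and 112281 footprints, and that of replicate 2 held 131518 peaks and 261301 footprints. The depth in reads is unknown, so no counting interval can be given. In whole tissue, the share of cells with an open site and the degree of opening within each cell cannot be told apart. As a check of the tissue label, 5 of 8 granule cell lineage promoters, 6 of 8 Purkinje cell promoters and 1 of 2 of the cerebellar region had a peak in both libraries, beside 58.9% of all coding genes, so these counts alone do not set the tissue apart. The region gene was En2, and En1 had a peak in replicate 2 alone. No promoter of 10 genes of other tissues, 8 of blood and myeloid cells, 6 of meninges and vessels and 3 of the choroid plexus had a peak in both, though 4 of the meningeal and vessel genes had one in replicate 2 alone.

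Cytosolic ribosomal proteins assemble with ribosomal RNA into the small subunit, which decodes messenger RNA, and the large subunit, which joins amino acids. Their genes are transcribed in every growing cell, start within a run of pyrimidines that becomes the terminal oligopyrimidine tract of the message, and are translated under the control of mTOR. Growing neuron precursors such as the granule cell precursors of the newborn cerebellum make many ribosomes. The mouse genome also carries many processed copies of these genes, which arose from messages and lack the parent promoter.

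The promoters below show where the deposited footprints lay. Each covers 100 bases before the annotated principal coding start, the start itself, and 19 bases after it, read 5′ to 3′ along the gene from the mm10 genome sequence. Capitals mark bases inside a footprint of the named library. Rplp0 (chr5:115559367-115559486, plus strand), which had the highest mean rank of all members, is shown first:
Rplp0 replicate 1: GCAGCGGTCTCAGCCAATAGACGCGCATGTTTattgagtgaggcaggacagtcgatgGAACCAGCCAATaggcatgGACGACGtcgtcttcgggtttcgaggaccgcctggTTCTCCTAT
Rplp0 replicate 2: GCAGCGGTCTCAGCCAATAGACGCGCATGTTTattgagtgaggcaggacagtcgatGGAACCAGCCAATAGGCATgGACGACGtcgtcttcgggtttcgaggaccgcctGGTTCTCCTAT
With the start counted as 0 and positions before it as negative, a 40 bp footprint with the same ends in both libraries ran from -108 to -69 at Rplp0, and a shorter one ran from -43 to -32 in replicate 1 and from -44 to -26 in replicate 2. Each held a CCAAT. Rps3a1 (chr3:86142683-86142802, minus strand) carried the widest member footprint of replicate 1, 48 bp, and one of 50 bp at the same place in replicate 2:
Rps3a1 replicate 1: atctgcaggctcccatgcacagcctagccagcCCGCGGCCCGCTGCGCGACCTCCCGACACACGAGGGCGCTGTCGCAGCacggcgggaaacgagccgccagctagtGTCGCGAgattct
Rps3a1 replicate 2: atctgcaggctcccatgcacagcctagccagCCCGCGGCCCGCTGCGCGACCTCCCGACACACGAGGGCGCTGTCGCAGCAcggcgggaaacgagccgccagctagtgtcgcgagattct
Rps6 (chr4:86857393-86857512, minus strand) and Rpl26 (chr11:68901483-68901602, plus strand) show a 10-base palindrome with the core TCGCGA, extended by TC before it and GA after it. It overlapped a footprint in both libraries at each gene, though at Rps6 in replicate 2 only by its first bases:
Rps6 replicate 1: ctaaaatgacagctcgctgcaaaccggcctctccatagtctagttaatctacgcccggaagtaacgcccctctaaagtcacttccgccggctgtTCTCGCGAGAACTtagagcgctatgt
Rps6 replicate 2: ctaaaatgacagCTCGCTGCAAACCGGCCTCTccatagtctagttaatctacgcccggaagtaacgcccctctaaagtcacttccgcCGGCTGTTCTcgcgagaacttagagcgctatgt
Rpl26 replicate 1: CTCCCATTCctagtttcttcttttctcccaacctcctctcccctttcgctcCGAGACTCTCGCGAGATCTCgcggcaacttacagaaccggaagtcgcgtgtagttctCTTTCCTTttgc
Rpl26 replicate 2: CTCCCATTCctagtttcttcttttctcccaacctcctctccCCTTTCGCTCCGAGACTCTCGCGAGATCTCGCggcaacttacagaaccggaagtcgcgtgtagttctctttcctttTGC
Rpl37a (chr1:72711190-72711309, plus strand) shows an NRF1-type site, a palindrome with the core GCATGC, wholly inside an 18 bp footprint of replicate 1 that was 20 bp in replicate 2:
Rpl37a replicate 1: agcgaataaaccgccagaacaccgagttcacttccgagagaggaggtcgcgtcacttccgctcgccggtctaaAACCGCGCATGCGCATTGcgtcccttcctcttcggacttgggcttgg
Rpl37a replicate 2: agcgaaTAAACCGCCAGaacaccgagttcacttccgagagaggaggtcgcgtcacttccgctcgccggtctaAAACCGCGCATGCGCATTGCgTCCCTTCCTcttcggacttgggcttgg
Rpl8 (chr15:76903978-76904097, plus strand) had 0 footprints in the whole promoter window in replicate 1 and 6 in replicate 2, of which 3 lay in the stretch shown:
Rpl8 replicate 2: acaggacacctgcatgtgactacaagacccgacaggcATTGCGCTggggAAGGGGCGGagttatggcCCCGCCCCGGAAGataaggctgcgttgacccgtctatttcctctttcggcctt

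A promoter was called open where a peak of the less strict deposited list overlapped the window of 500 bp on either side of any coding start of the gene. All 77 standard ribosomal protein genes were open in both libraries. Over all 92 members the count was 82, or 89.1%, beside 58.9% of all coding genes. In replicate 1 alone 82 members were open, beside 59.9% of coding genes, and in replicate 2 alone 83, beside 65.0%. The stricter list kept 81 members in both libraries, beside 52.3% of coding genes. The member it lost was Rpl23a, a large subunit gene, whose peak in replicate 1 had a value of 1.05. The 10 members without a peak in both libraries were 3 of the 7 final-l paralogues and all 7 genes with retrocopy names.

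The value of a promoter was the signal of its strongest peak, in the authors' normalised units. Over the 82 open members the median signal was 2.97 in replicate 1, with the middle of the members between 2.20 and 4.35 (the quartiles), and 7.54 in replicate 2, with quartiles of 5.00 and 10.1. Over the 12774 coding genes open in both libraries the medians were 2.14 and 4.46. Because the scale of the libraries may differ, each promoter was also ranked among all coding promoters with a peak in its own library. The members' median mean percentile was 72.1, beside 53.0 over all coding genes open in both. A mean percentile of 90 or more was reached by 20 of the 82 members (24.4%, beside 9.34% of coding genes), and of 75 or more by 38 (46.3%, beside 25.8%). In all, 68 were at 50 or more (82.9%, beside 53.3%), and 0 were under 25, where 2584 of the 12774 coding genes lay.

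**Figure D1:**
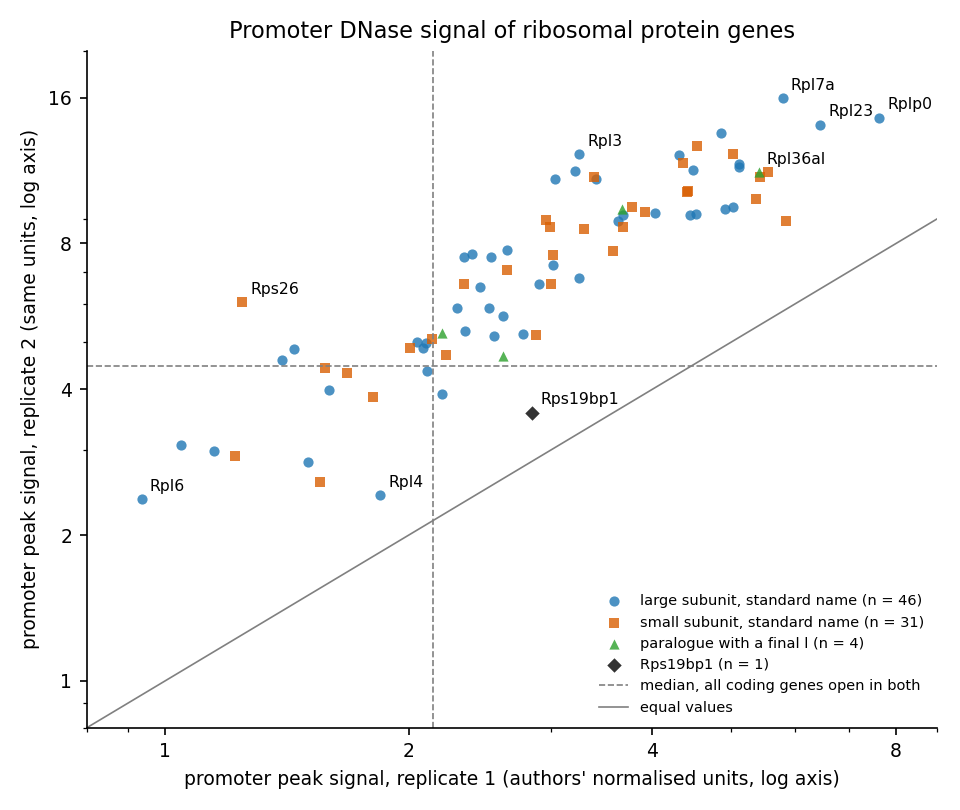
Promoter peak signal of each of the 82 ribosomal protein genes open in both libraries, replicate 1 on the x axis and replicate 2 on the y axis, both in the authors' normalised units on log axes. All points lie above the line of equal values, from Rpl6 at 0.935 and 2.38 to Rplp0 at 7.62 and 14.6; dashed lines are the medians of all coding genes open in both libraries, 2.14 and 4.46.

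The large subunit genes ranged from 0.935 to 7.62 in replicate 1, with a median of 2.71, and from 2.38 to 15.9 in replicate 2, with a median of 7.37. Rplp0, which encodes the base protein of the ribosomal stalk that recruits translation factors, had a signal of 7.62 in replicate 1 and 14.6 in replicate 2 (mean 11.1 ± 4.91, SD, n = 2). Rpl7a, whose start lies head to head with that of Med22, had 5.79 and 15.9, the highest member value of replicate 2. Rpl23 had 6.45 and 14.1. In both libraries these 3 genes stood between percentiles 97.6 and 99.8 of the coding promoters with a peak.

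The next large subunit genes by rank were Rpl9, with 4.86 in replicate 1 and 13.5 in replicate 2, and Rpl37, with 5.12 and 11.7. The strongest peak of Rpl9 lay nearer the start of its head-to-head neighbour Lias than its own in both libraries, so its value cannot be given to Rpl9 alone. At the other end, Rpl6 had 0.935 and 2.38 and Rpl23a had 1.05 and 3.07. Rpl30 and Rpl32, promoters long used to study ribosomal protein gene transcription, were both in the lower part, Rpl30 at 1.39 and 4.60 and Rpl32 at 1.503 and 2.83.

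The small subunit genes ranged from 1.22 to 5.85 in replicate 1, with a median of 3.02, and from 2.57 to 12.7 in replicate 2, with a median of 8.59. Their median mean percentile was 77.1, beside 69.4 for the large subunit, a difference that is smaller than the range within either subunit and was not tested. Rps3a1 had 5.56 in replicate 1 and 11.2 in replicate 2. Rpsa, the laminin receptor precursor that is also a small subunit protein, had 3.68 and 8.65. Among the lowest small subunit genes was the X-linked Rps4x, at 1.22 and 2.91.

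**Figure D2:**
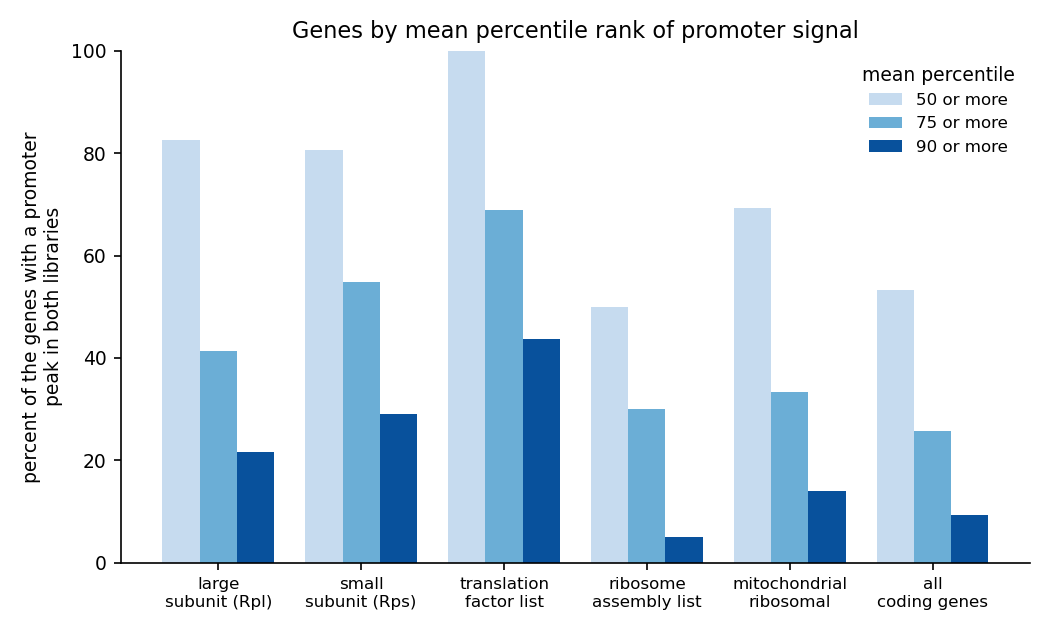
Percent of genes (y axis) whose mean percentile rank of promoter signal over the 2 libraries was at least 50, 75 or 90, among the genes open in both, for each gene group (x axis). The large and small subunit bars at 90 or more stand at 21.7% and 29.0%, the translation factor list at 43.8% of 16 genes and all coding genes at 9.34%.

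The acidic stalk genes Rplp1 and Rplp2, whose proteins bind Rplp0 as dimers, had lower signals than Rplp0 in both libraries. Rplp1 had 2.34 in replicate 1 and 7.52 in replicate 2, and Rplp2 had 2.35 and 5.27. Of the genes known for Diamond-Blackfan anaemia, a failure of red cell production caused by loss of 1 copy of a ribosomal protein gene, a list of 8 was taken, and all 8 were open in both libraries, as were all standard members. Rps19, the most often mutated of them, had 4.41 and 10.2, Rpl5 had 3.62 and 8.91, Rps24 had 2.95 and 8.93, and Rpl11 had 2.10 and 5.00. Rps10 had 1.68 and 4.32, and Rpl35a had 2.20 and 3.91. Their medians were 2.58 and 7.48, beside 2.97 and 7.54 for all open members.

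The 4 X-linked members, Rpl10, Rpl36a, Rpl39 and Rps4x, had a median of 1.33 in replicate 1 and 3.68 in replicate 2, beside 3.01 and 7.73 for the 73 autosomal standard members. Rpl36a was the highest of them in replicate 1 at 2.11, and Rpl10 in replicate 2 at 4.84. Rpl39 had 1.15 and 2.98. Over all coding genes open in both libraries the X-linked medians were 1.02 and 2.33 and the autosomal ones 2.20 and 4.59, so the same order held over all coding genes. The animals were male and have 1 X chromosome, and the part of this in the values was not tested.

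Of the 7 final-l paralogues, 4 were open in both libraries (57.1%, beside 58.9% of coding genes), and of their 7 namesake genes all were. Rpl3l, a muscle counterpart of Rpl3, Rpl10l, an autosomal testis counterpart of the X-linked Rpl10, and Rpl39l, a testis counterpart of Rpl39, had no peak within 2000 bp of a coding start, 0 footprints, and 0 bases of the promoter window under a q-value of 0.001 in either library. Their namesakes Rpl3, Rpl10 and Rpl39 had 3.25, 1.45 and 1.15 in replicate 1 and 12.2, 4.84 and 2.98 in replicate 2. The closed promoter of Rpl10l had 54 CpG dinucleotides in its window, more than the 46 of Rpl10. Rpl3l had 12 beside 50 for Rpl3, and Rpl39l had 31 beside 45 for Rpl39.

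The other 4 paralogues had higher values than their namesakes in both libraries. Rpl36al had 5.41 in replicate 1 and 11.2 in replicate 2, beside 2.11 and 4.37 for the X-linked Rpl36a, the widest gap among the open pairs. In replicate 2 its strongest peak lay nearer the start of its head-to-head neighbour Mgat2. Rpl22l1 had 3.67 and 9.42, beside 2.30 and 5.89 for Rpl22. Rps27l, a target of p53, had 2.61 and 4.70, beside 1.57 and 4.42 for Rps27, whose own strongest peak lay nearer the start of Rab13 in both libraries. Rpl7l1 had 2.20 and 5.24, beside 2.08 and 4.86 for Rpl7, a difference far smaller than that between the libraries.

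**Figure D3:**
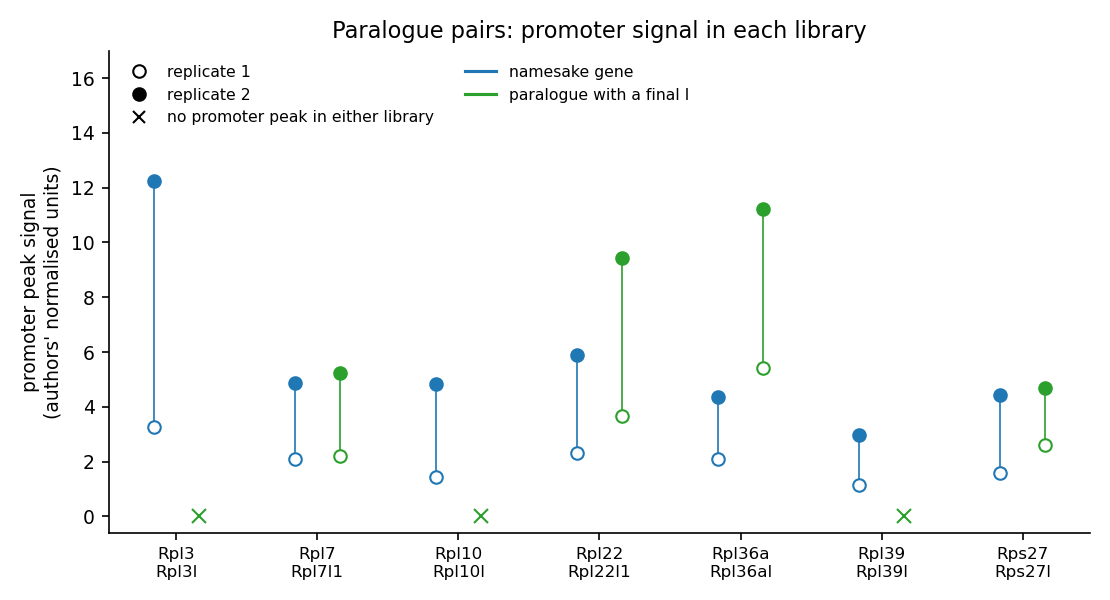
Promoter peak signal (y axis, the authors' normalised units) in replicate 1 (open circles) and replicate 2 (filled circles) for 7 namesake genes (blue) and their paralogues with a final l (green). Crosses at 0 mark Rpl3l, Rpl10l and Rpl39l, which had no promoter peak in either library, while Rpl36al and Rpl22l1 stand above Rpl36a and Rpl22.

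None of the 7 coding genes with retrocopy names was open in both libraries. Rpl10-ps3, Rpl9-ps1, Rpl36a-ps1, Rpl36-ps4, Rpl9-ps6 and Rps12-ps3 had no peak in either library and 0 footprints. Rps27rt had a peak in replicate 2 alone, of 0.619, centred at -402 bp from its start. Annotated pseudogenes named after a member were treated the same way. Of 294 such pseudogenes, 6 had a peak at the annotated start in replicate 1 and 11 in replicate 2. A peak in both libraries was found at 1.63% of 12713 pseudogenes of all kinds and 1.29% of 10142 processed ones. Among the 294 named after a member, 2 had a peak in both (0.68%). The 2 were Rps19-ps10, at 0.548 and 1.11, and Rpl29-ps2, at 1.37 and 4.63, whose start lies within 1000 bp of a coding start of Akr1e1. The sources used here do not state how reads that match a parent gene and its copies were placed.

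The strongest promoter peaks lay at the start of most members. They covered an annotated coding start at 70 of the 82 open members in replicate 1 (85.4%, beside 74.4% of coding genes open in both) and 73 in replicate 2 (89.0%, beside 75.4%). Their median centre was at -18 bp from the nearest start in replicate 1 and at -27.5 bp in replicate 2. Rpl37 was an exception among strong promoters, with its peak centred at -184.5 bp in replicate 1 and -164.5 bp in replicate 2. At 5 members another coding gene's start was nearer to the peak in both libraries. These were Rpl9 (Lias), Rpl12 (Lrsam1), Rps25 (Trappc4), Rps27 (Rab13) and Rpl4 (Zwilch). In replicate 2 the same held for Rpl36al (Mgat2), Rpl18 (Sphk2) and Rps27a (Clhc1). Without these 8, the 74 remaining open members had medians of 3.00 and 7.60.

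Every one of the 82 members open in both libraries had a higher signal in replicate 2 than in replicate 1. The share was 92.6% of coding genes open in both, and 99.9% of those at a mean percentile of 75 or more. The median log2 difference, replicate 2 minus replicate 1, was 1.25 (SD over members 0.32, range 0.33 to 2.28), beside 1.02 over all coding genes open in both. Coding genes at a mean percentile of 75 or more had a median of 1.29, and members there 1.27. The number of peaks and footprints called also differed between the libraries, and the part of depth and scaling in this difference was not tested. Across the members the log2 values of the 2 libraries had a Pearson correlation of 0.885 (Spearman 0.901, n = 82 genes), beside 0.898 over all coding genes. Genes share both libraries, so this is given as a description.

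The largest difference was at Rps26, which had 1.25 in replicate 1 and 6.06 in replicate 2, a log2 difference of 2.28. Its strongest peaks were not at the same place. That of replicate 1 was centred at 266.5 bp from the nearest start, after it, and that of replicate 2 at -93.5 bp, where replicate 1 had no peak. Rpl3 (3.25 and 12.2, log2 difference 1.91), Rpl13a (3.03 and 10.9, 1.84), Rpl27 (3.21 and 11.3, 1.81) and Rpl10 (1.45 and 4.84, 1.74) followed. Among the smallest differences were 0.33 at Rps19bp1 (2.84 and 3.58), 0.39 at Rpl4 (1.85 and 2.42) and 0.83 at Rpl35a. At Rpl4 the peak measured lay nearer the start of Zwilch. The strongest peaks of the libraries overlapped at 77 of the 82 members (93.9%, beside 93.1% of coding genes), and the other 5 were Rpl7, Rpl18, Rpl23a, Rpl39 and Rps26.

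A footprint lay in the promoter window in both libraries at 81 of the 92 members (88.0%, beside 56.5% of coding genes). Among the open members the exception was Rpl8. The open members had a median of 4 footprints in replicate 1 and 6 in replicate 2, as did all coding genes open in both. Coding genes at a mean percentile of 75 or more had medians of 5 and 8, where the 38 members there had 4 and 6. Of the 332 member footprints of replicate 1, 227 overlapped a footprint of replicate 2 (68.4%, beside 62.5% at all open coding genes). At a mean percentile of 75 or more the share was 78.0% at members and 79.3% at coding genes. At members, 8 footprints had identical ends in both libraries. The median width was 9 bp in replicate 1 and 11 bp in replicate 2, and 24 and 51 footprints were 25 bp or wider. Identical ends and widths were not counted over all coding genes.

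Among the members with the most footprints were Rpl13a (10 in replicate 1 and 11 in replicate 2), Rps19 (8 and 13), Rpl7 (9 and 10) and Rplp0 (7 and 10). These counts cover the windows of all coding starts of a gene and were not scaled to the bases covered. Rpl13a has 5 annotated coding starts, Rps19 6, Rpl7 2 and Rplp0 3. Many footprints did not always go with a high signal. Rpl7 had 2.08 and 4.86, and Rpl39, among the 5 lowest promoters by rank, had 7 and 8 footprints. Rpsa had 1 and 7. Footprint cover was measured as the percent of bases inside a footprint in bins of 10 bp around the principal start. The open members had a higher median mean percentile of signal than the open coding genes, 72.1 and 53.0. Cover was not measured at coding genes of like signal. In replicate 1 it was highest at members from -20 to -11 bp, at 25.6%, beside 14.1% at all open coding genes. In replicate 2 it was highest from -50 to -41 bp, at 34.5%, beside 24.3%. From -90 to -81 bp cover was 21.7% beside 11.3% in replicate 1, and 31.3% beside 21.1% in replicate 2. From -130 to -121 bp it was 6.46% beside 7.75% in replicate 1, and 16.7% beside 16.1% in replicate 2. After the start, replicate 2 had 31.6% beside 15.2% from 40 to 49 bp, where replicate 1 had 12.9% beside 7.18%.

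**Figure D4:**
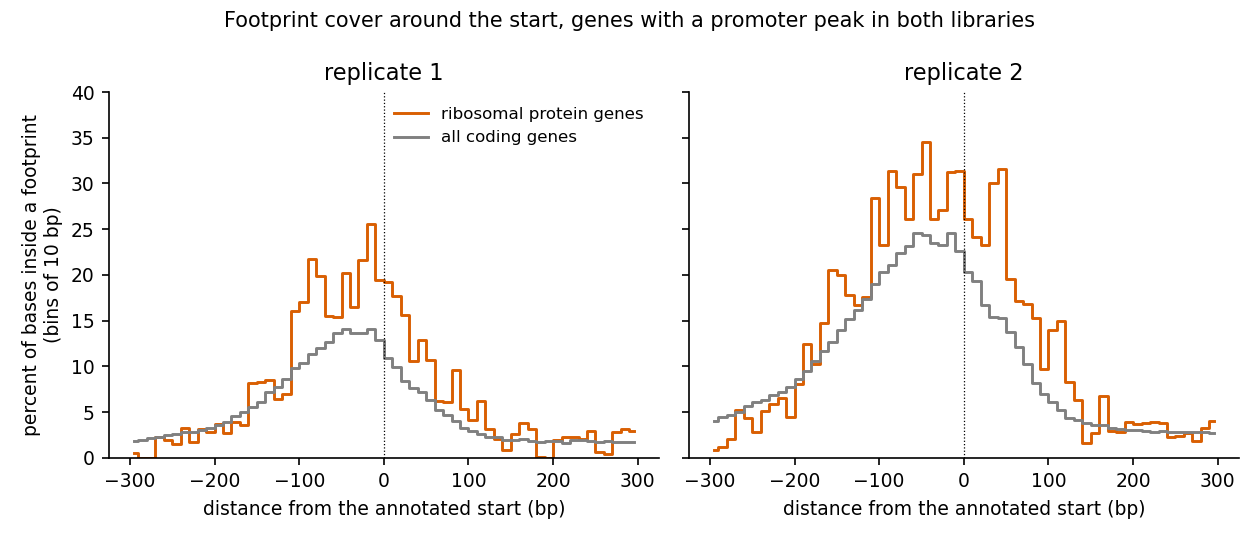
Percent of bases inside a deposited footprint (y axis) by distance from the annotated principal start (x axis, bp, bins of 10 bp), for 82 ribosomal protein genes (orange) and all 12774 coding genes (grey) that were open in both libraries. The orange line is above the grey one in the bins from -90 to -11 bp, with highest bins of 25.6% in replicate 1 and 34.5% in replicate 2.

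Fixed letter strings were searched within 100 bp of the principal start on both strands, and the pyrimidine strings CTTTC and CTTTT within 10 bp of it on the gene's strand. CCGGAAG, the core bound by ETS family factors such as GABP, was found at 27 of 92 members (29.3%), beside 9.67% of all coding genes and 14.8% of those open in both libraries. The palindrome shown at Rps6 and Rpl26, which the factor BANP binds, was found at 7 members (7.61%), beside 0.485% and 0.783%. AAGATGG, the core of the YY1 site, was found at 10 (10.9%), beside 5.10% and 6.13%. TATAAA, the TATA box, was found at 10 (10.9%), beside 8.14% of all coding genes and 3.57% of open ones. From 250 bp before to 49 bp after the start it was found at 9.78% of members, below the 12.7% of all coding genes and above the 6.80% of open ones. It was counted on either strand and at any place in the window, so a match is not a TATA box at its usual distance.

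Of the remaining strings, GGGCGG, the GC box bound by SP1, was found at 46 of the 92 members, beside 41.8% and 60.2%. CCAAT, bound by NFY, was found at 19 (20.7%), beside 27.2% and 27.6%. CACGTG, the E-box bound by MYC and USF, was found at 7 (7.61%), beside 5.53% and 7.10%. The NRF1-type palindrome was found at 2 (2.17%), Rpl37a and Rpl10a, beside 1.01% and 1.64%. An 11-base part of the ZNF143 site was found at 1 (1.09%), Rpl23a, beside 0.245% and 0.407%. A match is a description of letters and not of binding.

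**Figure D5:**
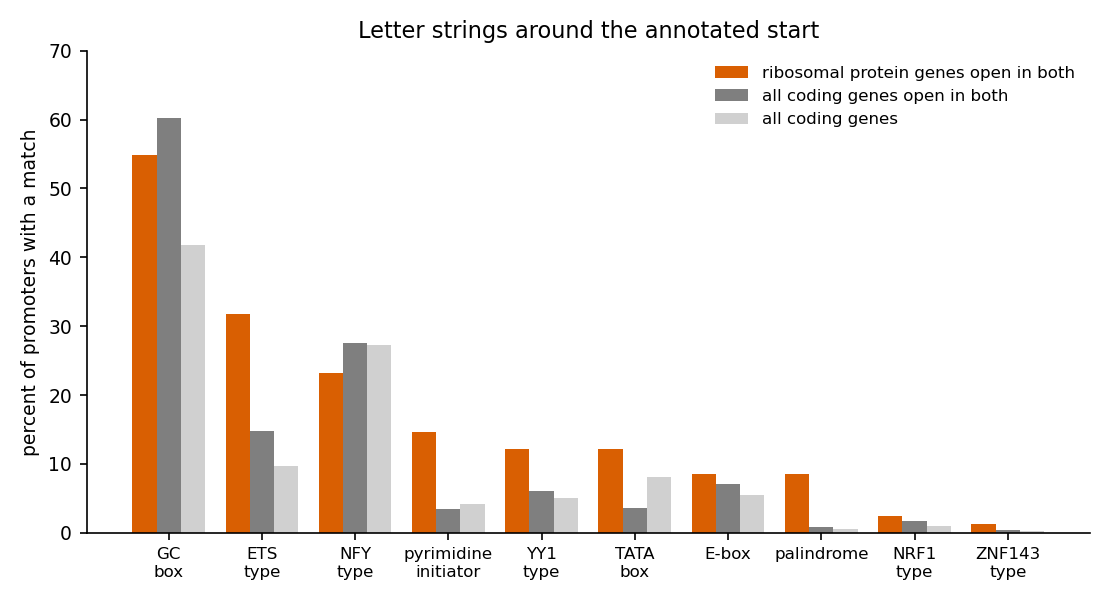
Percent of promoters (y axis) with a match to each letter string (x axis) near the principal start, for the 82 ribosomal protein genes open in both libraries, all coding genes open in both and all coding genes. The ETS-type string stands at 31.7%, 14.8% and 9.67%, and the palindrome at 8.54%, 0.783% and 0.485%.

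Members with the BANP-type palindrome included Rps6, Rps7, Rps28, Rpl10a, Rpl17 and Rpl26. The match overlapped a footprint by at least 1 bp in both libraries at Rps6, Rpl26, Rpl10a and Rpl17, in replicate 1 alone at Rps28 and in neither at Rps7. At Rps6 the footprint of replicate 2 held only the first bases of the palindrome. At all open coding genes 51.9% of 106 matches overlapped a footprint in replicate 1 and 61.3% in replicate 2. The 7 genes with it had a median signal of 4.42 and 9.17, beside 2.88 and 7.52 for the 70 standard members without the string. The 25 standard members with CCGGAAG had medians of 2.55 and 6.61, beside 3.12 and 8.16 for the 52 without it. Of 32 CCGGAAG matches at open members, 10 overlapped a footprint in replicate 1 (31.2%, beside 26.4% at all open coding genes) and 14 in replicate 2 (43.8%, beside 41.7%). Of 11 TATAAA matches, 6 overlapped a footprint in replicate 1 (54.5%, beside 20.4%) and 8 in replicate 2 (72.7%, beside 27.5%). The 11 matches lay at 10 genes, since Rpl22l1 held 2 that overlap each other on opposite strands. Both of these met the same footprint of replicate 2 and none of replicate 1.

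A pyrimidine string lay within 10 bp of the principal start at 15 members (16.3%), beside 4.12% of all coding genes and 3.48% of open ones. Taken around any annotated coding start of a gene, which is a setting chosen after seeing the data, the count was 29 (31.5%, beside 9.48% and 9.90%). The counts depend on which start the annotation gives, since several principal starts lie upstream of the pyrimidine run. The following 30-base stretches show the string in capitals with an annotated coding start at base 16, for members from both ends of the signal range:
Rpl23, chr11:97782368-97782397, minus strand: cctgtactaacttcCTTTCtgaccctttcc
Rpl37, chr15:5116630-5116659, plus strand: tggcgggggtgCTTTCtcttccggtctctt
Rps19, chr7:24884621-24884650, plus strand: aaccccgtcgttccCTTTCccctggctggc
Rpl13a, chr7:45128723-45128752, minus strand: gcgacaagacctcctcCTTTCccaggcggc
Rps10, chr17:27635226-27635255, minus strand: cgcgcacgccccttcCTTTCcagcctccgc
Rpl30, chr15:34443208-34443237, minus strand: ttgtgggagctccttcCTTTCtcgctcccc
Rpl4, chr9:64173360-64173389, plus strand: agtgacaagtCTTTCCTTTTcctgtgggag
Rpl23 and Rpl37 were among the 8 highest members by rank, and Rpl4 and Rpl30 were in the lower part. At the principal start, the 7 standard members with CTTTC had medians of 2.87 and 5.17, beside 3.01 and 7.68 for the 70 without it. Of 8 CTTTC matches at open members, 0 overlapped a footprint in replicate 1 and 4 in replicate 2, beside 10.04% and 22.6% of matches at all open coding genes.

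Members were also described by features that the name rule did not use. Their principal transcripts had a median of 5 exons, beside 9 for all open coding genes, and their windows a median of 68.5 CpG dinucleotides, beside 64. The order of the CpG medians was reversed at a mean percentile of 75 or more, with 72 at members and 74 at coding genes. Small nucleolar RNA genes, which guide modification of ribosomal RNA and are often processed from introns, lay inside 30 of the 77 standard members (39.0%), beside 1.27% of all coding genes, 58 such genes in all. The 30 hosts had medians of 3.25 and 8.78, and the 47 other standard members had 2.90 and 7.52, a gap smaller than the distance between the quartiles of either group. A head-to-head coding neighbour within 1000 bp was found at 12 of 92 members (13.0%), beside 8.47% of coding genes. The share was higher, 30.8%, at mitochondrial ribosomal protein genes. At a mean percentile of 75 or more it was 18.4% of members and 22.1% of coding genes.

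Peaks inside the annotated gene span but outside the member's own promoter window were counted. There were 12 at 10 members in replicate 1 and 25 at 20 members in replicate 2, and 9 overlapped between the libraries. Such peaks were not counted over all coding genes, so no share stands beside them. The member counts include peaks in the promoter window of another coding gene, at Rps24 (Polr3a) and Rps14 (Ndst1) in both libraries and at Rpl41 (Zc3h10) in replicate 2. The strongest that was away from another gene's start was at Rpl3 (chr15:80088761-80088900, mm10), touching no exon and lying upstream of the principal start, with 2.74 in replicate 1 and 8.21 in replicate 2. Rpl26 had an intronic peak of 1.77 and 2.21, and Rpl22 a peak touching an exon of 1.75 and 2.85.

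The other genes of the pathway were open throughout, beside 58.9% of all coding genes. Fau, which encodes a ribosomal protein fused to a ubiquitin-like protein, had 4.95 in replicate 1 and 11.1 in replicate 2. Rack1, a scaffold protein bound to the small subunit, had 1.54 and 3.70. All 16 translation genes on the list of messages with a terminal oligopyrimidine tract were open in both libraries, with medians of 3.85 and 10.2. Among the first on that list, the elongation factor genes Eef1a1, Eef2 and Eef1b2 had 2.84, 7.11 and 4.01 in replicate 1 and 8.18, 13.5 and 11.5 in replicate 2. All 20 genes of ribosome assembly and RNA polymerase I were open, with medians of 2.29 and 4.74, close to the 2.14 and 4.46 of all open coding genes. Of these, Fbl and Ncl, nucleolar proteins, had 1.63 and 3.04 in replicate 1 and 4.60 and 11.0 in replicate 2, and Nop56 had 6.35 and 14.02. All 78 mitochondrial ribosomal protein genes were open in both libraries too, with medians of 2.55 and 5.17 and a median log2 difference of 1.01. These medians were below those of the open cytosolic members, 2.97 and 7.54, and the difference was not tested.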

How the data were processed

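DNase-seq was measured in 2 libraries of 1 group, numbered as biological replicates per the labels' descriptions, which also give the assembly mm10. The authors deposited, for each library, 2 peak lists, a list of footprints and a list of short intervals with an FDR. The peak value is a normalised signal in the deposited lists. No label or header used here names its scaling factor, the aligner or the peak and footprint callers, and the depth in reads is unknown, so the number of libraries limits the precision. The interval value in the deposited FDR lists was read as a q-value. The footprint lists hold the same value, 0.01, in each row, so only the authors' positions were used.

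The list with more peaks was the main list, and the list with fewer was called stricter. GENCODE release M21 gave genes and starts, and GRCm38 sequence came from RefSeq's genome file. A gene was open where a peak overlapped the window of 500 bp around any coding start by at least 1 bp. The strongest of these peaks gave its value, and percentiles were ranks within a library. The principal start was that of the transcript with the best APPRIS level, then the best support level, then the lowest transcript number. Bases under an FDR of 0.001 were counted in the window. Motif windows, lists and the name rule were set with earlier results of these data known, as were the members. Named genes were the members not open in both libraries, the 8 highest and 5 lowest by mean percentile, the 5 largest and 5 smallest library differences, the 5 with most footprints, the paralogues and namesakes, the stalk genes and Rpsa, Rpl30 and Rpl32, the anaemia genes, the X-linked members and the first 3 of each other pathway list. Members beyond these were named after their values were seen, for peaks nearer another gene, motifs, peaks inside genes and a lack of footprints. Some genes that the rule names are not reported here.

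Alternatives were the stricter list, windows of 100 and 2000 bp, the first start alone, equal numbers of peaks (61896), summed peaks, other motif windows and each library alone. No test between groups was possible. Window overlap and strand handling were tested on simulated intervals and gave no mismatch. Python 3.11.15, numpy 2.4.6, pandas 2.3.3 and matplotlib 3.10.9 were used.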

Additional observations from a re-analysis of the deposited data

How the results depend on the processing

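No paired analysis was possible because there was a single group and no test. Of 73 values recomputed under an alternative, 56 stayed close to the main value (counts within 1.5 times, medians within 1 SD of the libraries or members) and 17 did not. For the median signal, 5.07, the SD of the 2 libraries was 3.23. Either library alone, at 7.52 and 2.97, falls within that SD almost by construction, so the label says little there. The count of 82 open members could not rise 1.5 times, since there were 92 members. The final-l paralogues open in both libraries numbered 4, and 2 where only names ending in l were taken. The median number of footprints per member was 4.5 as the mean of both libraries over all 92 members and ranged from 4 to 6 with 1 library left out. Pseudogenes with a peak at the start in both libraries numbered 2, 1 with the stricter list, 1 with a window of 100 bp, 12 with a window of 2000 bp, and 6 to 11 with 1 library left out. Members with CTTTC near the start numbered 9, against 48 from 250 bp before to 49 bp after the start, 20 around any coding start and 27 within 50 bp. Those with CTTTT numbered 7, against 39, 12 and 14, and those with either string 15, against 66, 29 and 37, in the same order. The settings at any coding start and within 50 bp were chosen after seeing the data. Those with CACGTG numbered 7, and 11 in the window from 250 bp before the start. The wider windows hold more bases, and the single library needs no second call. Depth in reads is unknown, so a promoter without a peak was not called at the depth of these libraries.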

Other observations

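At 5 members the strongest promoter peaks of the libraries did not overlap, and the value of each site in the other library was read where a peak was called there. At Rps26, the site that was strongest in replicate 1 had 1.25 there and 3.33 in replicate 2, while the site that was strongest in replicate 2, at 6.06, had no peak in replicate 1. At Rpl23a, the replicate 2 site had 3.07, with 1.04 in replicate 1, where the strongest peak, of 1.05, lay elsewhere and had none in replicate 2. At Rpl18, the 2 sites had 4.50 and 3.63 in replicate 1 and 10.7 and 11.4 in replicate 2. At Rpl39 they had 1.15 and 1.10 in replicate 1 and 2.77 and 2.98 in replicate 2, and at Rpl7 2.08 and 1.98 in replicate 1 and 3.34 and 4.86 in replicate 2.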
